A study of Mus musculus with 4 samples.

Results

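The beta-cell disallowed genes are a group of otherwise widely expressed genes whose low expression sets pancreatic beta cells apart from most other tissues. The 10 members described here were taken by symbol from a table of 55536 genes: Ldha, Slc16a1, Acot7, Hk1, Oat, Mgst1, Lmo4, Smad3, Ndrg2 and Tgm2. All 10 had counts in every library and passed the filter on low counts. They were measured by bulk RNA sequencing of polyadenylated RNA from pancreatic islets of male C57BL/6 mice aged 8 weeks, in 2 insulin-depleted libraries, treated during preparation with a panel that removes insulin sequences (DepleteX, Jumpcode Genomics), and in 2 non-depleted libraries made without that step. The labels number the libraries of each group as biological replicates 1 and 2 and give no animal for either, and every column name of the table carries the same pair of codes, M1 and M2. Where they share an animal or pool, p-values measure only technical spread. Only the non-depleted columns are named with what looks like a mark of size selection, so any such step cannot be told apart from the absence of depletion. The protocol text describes dissociation of islets to single cells and does not say whether the bulk libraries used dissociated islets.

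Glucose makes beta cells release insulin because its carbon is burned in mitochondria, which raises ATP and closes potassium channels. Lactate dehydrogenase A and the plasma membrane carrier MCT1 would divert pyruvate to lactate, or let pyruvate and lactate from muscle enter the cell and start secretion at the wrong time. Hexokinase 1, which has a high affinity for glucose, would let secretion start at low glucose. The other members act in acyl-CoA hydrolysis, ornithine metabolism, detoxification, transcription and protein crosslinking. An islet holds beta, alpha, delta and gamma cells with blood vessels and stroma, and an isolated preparation also holds exocrine tissue, so a bulk level sums over all of these cells. In such data a gene used by few cells and a gene used weakly by many cells cannot be told apart, nor can fewer cells of a type and less RNA per cell.

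Library totals were 19316173 and 65030111 counts for insulin-depleted replicates 1 and 2, against 50605417 and 60528485 for their non-depleted counterparts. Ins1 and Ins2 took 0.195% and 0.264% of them in the insulin-depleted libraries, against 4.14% and 3.97% in the non-depleted libraries. Levels are therefore given as CPM, the counts of a gene scaled to 1 common total of all counts outside Ins1 and Ins2, so that removing insulin cannot shift them. The beta-cell marker Iapp, the amylin gene, stood at 18445 and 17552 CPM in insulin-depleted and at 18761 and 17396 CPM in non-depleted replicates 1 and 2. No gene of the 10 marker lists used here was at 0 in all libraries.

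In CPM the means over the 4 libraries ran from 6.64 for Ndrg2 to 117 for Ldha. Between genes, levels were compared only per length, as CPM per kilobase of the union of annotated exons. On that scale Ldha led with 35.4, and Oat (10.3), Hk1 (8.74), Tgm2 (7.21), Smad3 (6.09), Mgst1 (5.0), Lmo4 (4.07), Acot7 (3.95), Slc16a1 (2.72) and Ndrg2 (1.95) followed. Ldha lay above Oat, Oat above Hk1, Acot7 above Slc16a1 and Slc16a1 above Ndrg2 in all libraries. The ranges of all other neighbours in this order overlapped. With the longest annotated transcript as the length, 3 members kept their place. Ldha stayed first, while Hk1 moved to place 2 and Slc16a1 to the last place. On that second scale 8 of the 10 members lay above the median of 19717 tested genes with a length, 3.91 CPM per kilobase. Ldha (64.5) lay above 96.02% of these genes, and Slc16a1 (2.72) and Ndrg2 (3.16) above 44.7% and 46.6%. Whether beta cells or other cells of the preparation gave these counts cannot be told from a bulk level.

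**Figure D1:**
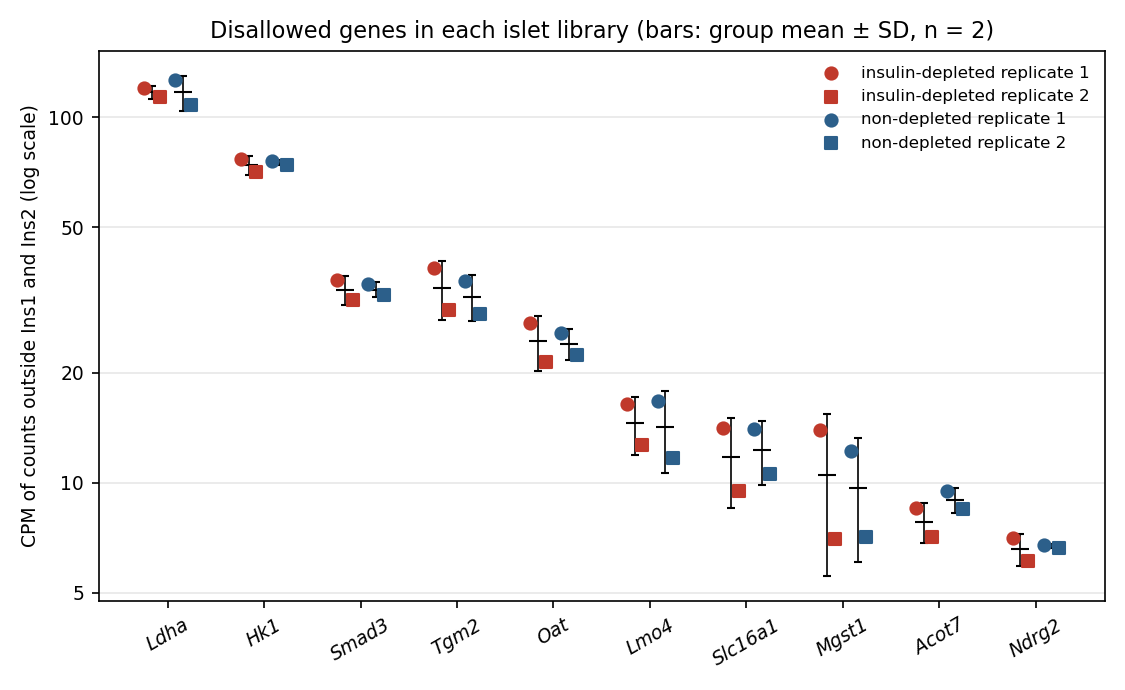
Level of each disallowed gene in each islet library, in CPM of counts outside Ins1 and Ins2 on a log axis. Circles are replicates 1 and squares replicates 2 of the insulin-depleted (red) and non-depleted (blue) groups, and bars give the group mean ± SD (n = 2). For all 10 genes the circles lie above the squares of both groups, while red and blue overlap.

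The first question was whether insulin depletion moved these genes. None was called (0 of 10 at an adjusted p under 0.05, edgeR quasi-likelihood test on group alone), beside 0.0101% of all genes tested, which were Ins1 and Ins2. No member had an unadjusted p under 0.05 either, as 0.416% of all genes did, a share far below the threshold itself. This fit counts the difference between replicate numbers as spread, so an absent call does not show an absent shift. Its common dispersion, the spread that edgeR estimates between libraries, was 0.0291, against 0.00104 with the replicate number added. For 4 members the log2 fold change was positive, as for 48.8% of all genes, and for 6 it was negative. Their median was -0.0056, beside -0.0025 over all genes tested. DESeq2 and limma-voom called 0 of 10 too, as did edgeR with the replicate number as a block. In every member the CPM of the groups overlapped. Over all genes tested, both insulin-depleted libraries lay above both others in 10.2% and below both in 9.33% of genes.

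Lactate is made by lactate dehydrogenase and carried by MCT1, so Ldha and Slc16a1 are the most cited pair of disallowed genes. Ldha (ENSMUSG00000063229, chromosome 7, 46841475 to 46855627, plus strand, GRCm38) had 121 and 114 CPM in insulin-depleted replicates 1 and 2, against 126 and 108 CPM in non-depleted replicates 1 and 2. Both insulin-depleted libraries lay inside the range of the non-depleted ones. The log2 fold change was -0.0043 (SE 0.11, 95% interval -0.28 to 0.27, adjusted p = 1.00). Of the 31-base stretches in Ldha transcripts, 19.6% also occur in other genes, the largest share with the processed pseudogene Gm5452 (7.77%), so part of its reads may be split by the counting.

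Slc16a1 (ENSMUSG00000032902, chromosome 3, 104638668 to 104658462, plus strand), which encodes MCT1, had 14.1 and 9.47 CPM in insulin-depleted replicates 1 and 2, against 14.04 and 10.6 CPM in non-depleted replicates 1 and 2. Replicates 1 nearly coincided across the groups, and replicates 2 were lower. The log2 fold change was -0.08 (SE 0.25, interval -0.72 to 0.55, adjusted p = 1.00). None of its 31-base stretches occurs in another gene.

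The upstream sequence of this pair is shown because they were the members, of 9 with a promoter in the RefSeq table (GRCm38.p6), with the E-box CACGTG in the 250 bases before an annotated start. This motif, a palindrome read the same on both strands and bound by factors such as MYC and USF, is in capitals. Ldha held it at 2 places (chr7:46845554-46845803, plus strand) and Slc16a1 at 1 place (chr3:104638414-104638663, plus strand). It occurred in 6.86% of all 27025 genes of the table and in 6.02% of its 32851 windows. A second Ldha window held none. These letters do not show that a factor binds there.
Ldha: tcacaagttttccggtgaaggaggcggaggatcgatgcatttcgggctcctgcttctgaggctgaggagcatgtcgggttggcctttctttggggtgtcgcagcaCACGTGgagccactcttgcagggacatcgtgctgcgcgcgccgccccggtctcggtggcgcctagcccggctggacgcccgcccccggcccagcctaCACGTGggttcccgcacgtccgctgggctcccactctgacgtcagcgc
Slc16a1: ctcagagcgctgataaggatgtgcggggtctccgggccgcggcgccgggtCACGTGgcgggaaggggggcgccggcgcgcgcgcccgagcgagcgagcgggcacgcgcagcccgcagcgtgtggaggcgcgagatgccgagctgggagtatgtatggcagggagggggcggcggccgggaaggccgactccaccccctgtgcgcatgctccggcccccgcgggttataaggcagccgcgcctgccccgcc

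Relatives of this pair were not called by depletion, with 0 of 2 tested lactate dehydrogenase relatives and 0 of 6 tested carriers past the threshold. Ldhb, which encodes the heart-type subunit, had 9.44 and 9.85 CPM in insulin-depleted and 8.08 and 8.09 CPM in non-depleted replicates 1 and 2 (log2 fold change 0.25, adjusted p = 1.00, edgeR). Both its insulin-depleted libraries lay above both others, as in 10.2% of all genes tested. Per kilobase, Ldha stood 5.77 ± 0.415 times as high as Ldhb in insulin-depleted and 6.87 ± 0.759 times in non-depleted libraries (SD, n = 2 each). Ldhc, the subunit of the testis, had a count of 0 in all 4 libraries. Slc16a1 reached 0.539 ± 0.199 times the per-kilobase level of Slc16a3, the lactate exporter MCT4, in insulin-depleted and 0.586 ± 0.157 times in non-depleted libraries. Slc16a1 stood 4.21 to 6.53 times as high per kilobase as Slc16a7, which encodes MCT2, in the 4 libraries. For Slc16a7 too, both insulin-depleted libraries lay above both others in CPM. Bsg, the chaperone that carries MCT1 to the membrane, was far above both, with 236 ± 36.6 CPM per kilobase in insulin-depleted and 232 ± 32.5 in non-depleted libraries.

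Hk1 encodes a hexokinase that works at low glucose. Hk1 (ENSMUSG00000037012, chromosome 10, 62268855 to 62379908, minus strand) had 77.0 and 71.0 CPM in insulin-depleted replicates 1 and 2, against 75.9 and 74.3 CPM in non-depleted replicates 1 and 2. It was the member with the narrowest interval in the fit on group alone: the log2 fold change was -0.03 (SE 0.09, interval -0.25 to 0.19, adjusted p = 1.00), a fold of 0.843 to 1.14. Per kilobase, Hk1 had 8.67 ± 0.497 CPM in insulin-depleted and 8.80 ± 0.135 CPM in non-depleted libraries (SD, n = 2 each). Hk2, the hexokinase of muscle and fat, was lower, with 2.18 ± 0.141 CPM per kilobase in insulin-depleted and 2.44 ± 0.188 in non-depleted libraries. Hkdc1 was lower again (0.654 ± 0.0619 and 0.820 ± 0.0866 in the same order). For Hk2 and Hkdc1 both insulin-depleted libraries lay below both others in CPM, as in 9.33% of all genes tested. None of 3 tested hexokinase relatives was called by depletion. Exons of Hk1 overlap an antisense gene, Hk1os, over 1.84% of their length, and it is not stated whether the counting was strand-specific.

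Acot7 encodes a cytosolic thioesterase that frees fatty acids from acyl-CoA. Acot7 (ENSMUSG00000028937, chromosome 4, 152178134 to 152271855, plus strand) had 8.51 and 7.12 CPM in insulin-depleted replicates 1 and 2, against 9.48 and 8.48 CPM in non-depleted replicates 1 and 2. The higher insulin-depleted library barely exceeded the lower non-depleted one, and the other insulin-depleted library lay below both. Its log2 fold change, -0.21 (SE 0.18, interval -0.65 to 0.22, adjusted p = 1.00), was the farthest from 0 among the members and did not pass the test. With the replicate number as a block the value was -0.21 (SE 0.13, interval -0.47 to 0.04, edgeR adjusted p = 0.999). Acot13, a mitochondrial thioesterase, stood 12.4 ± 1.09 and 11.1 ± 0.0909 times as high per kilobase in insulin-depleted and non-depleted libraries. Of 10 tested thioesterase relatives, 0 were called.

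Oat encodes ornithine aminotransferase, a mitochondrial enzyme between ornithine and proline. Oat (ENSMUSG00000030934, chromosome 7, 132557478 to 132576398, minus strand) had 27.3 and 21.4 CPM in insulin-depleted replicates 1 and 2, against 25.6 and 22.4 CPM in non-depleted replicates 1 and 2. The insulin-depleted libraries lay on either side of both others, with a log2 fold change of 0.01 (SE 0.16, interval -0.40 to 0.42, adjusted p = 1.00). Of 8 tested ornithine and proline enzymes, 0 were called.

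Mgst1 encodes a microsomal glutathione transferase. Mgst1 (ENSMUSG00000008540, chromosome 6, 138140316 to 138156755, plus strand) had 13.95 and 7.0 CPM in insulin-depleted replicates 1 and 2, against 12.2 and 7.12 CPM in non-depleted replicates 1 and 2. On the log2 scale it varied most within groups of all members. Its log2 fold change of 0.09 had the widest interval of the fit on group alone (SE 0.41, -0.94 to 1.11, adjusted p = 1.00), or 0.523-fold to 2.16-fold. That fit counts the difference between replicate numbers as spread. With the replicate number as a block the value was 0.08 (SE 0.12, interval -0.16 to 0.32, edgeR adjusted p = 0.999), or 0.894-fold to 1.25-fold. Its relative Mgst3 stood 1.08 and 2.87 times as high per kilobase of exon union in insulin-depleted and 1.20 and 2.84 times in non-depleted replicates 1 and 2. With the longest transcript as length the ratios were 0.625 and 1.67 in insulin-depleted and 0.695 and 1.64 in non-depleted replicates 1 and 2, so in replicates 1 the order of both genes turned with the length used.

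Lmo4 and Smad3 encode a LIM-only adaptor of transcription complexes and the TGF-beta effector that enters the nucleus with SMAD4. Lmo4 (ENSMUSG00000028266, chromosome 3, 144188530 to 144205220, minus strand) had 16.4 and 12.7 CPM in insulin-depleted replicates 1 and 2, against 16.8 and 11.7 CPM in non-depleted replicates 1 and 2 (log2 fold change 0.02, SE 0.23, interval -0.57 to 0.60, adjusted p = 1.00, edgeR). Smad3 (ENSMUSG00000032402, chromosome 9, 63646767 to 63757994, minus strand) had 35.9 and 31.6 CPM in insulin-depleted replicates 1 and 2, against 34.9 and 32.6 CPM in non-depleted replicates 1 and 2. Group means of Smad3 were 33.8 ± 3.07 CPM in insulin-depleted and 33.8 ± 1.62 CPM in non-depleted libraries (SD, n = 2 each), with a log2 fold change of -0.01 (SE 0.12, interval -0.30 to 0.29). Ldb1, which encodes the partner that LIM-only proteins bind, stood 5.57 to 9.54 times as high as Lmo4 per kilobase. Smad3 reached 0.790 to 0.838 times the level of Smad2, its closest relative in function, and both lay below Smad4 and the receptor gene Tgfbr1. None of 16 TGF-beta pathway genes or of 5 LIM-only factors and partners was called by depletion.

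Ndrg2 belongs to the N-myc downstream regulated genes, a family linked to stress responses, and Tgm2 encodes transglutaminase 2, which crosslinks proteins. Ndrg2 (ENSMUSG00000004558, chromosome 14, 51905271 to 51914158, minus strand) had 7.05 and 6.11 CPM in insulin-depleted replicates 1 and 2, against 6.76 and 6.64 CPM in non-depleted replicates 1 and 2 (log2 fold change -0.04, SE 0.17, interval -0.47 to 0.40, adjusted p = 1.00, edgeR). Its neuronal and endocrine relative Ndrg4 was several times higher per kilobase, with Ndrg2 at 0.124 to 0.156 times its level. Tgm2 (ENSMUSG00000037820, chromosome 2, 158116402 to 158146436, minus strand) had 38.6 and 29.7 CPM in insulin-depleted replicates 1 and 2, against 35.6 and 29.0 CPM in non-depleted replicates 1 and 2 (log2 fold change 0.07, SE 0.18, interval -0.38 to 0.52, adjusted p = 1.00, edgeR). Exons of Tgm2 overlap those of Gm20412 over 13.7% and of Rprd1b over 8.03% of their length, both on the opposite strand, so its counts are uncertain. The plasma transglutaminase gene F13a1 lay at 0.222 ± 0.0350 and 0.232 ± 0.0355 CPM per kilobase in insulin-depleted and non-depleted libraries, far below Tgm2 (7.41 ± 1.36 and 7.02 ± 1.01). No transglutaminase or NDRG relative was called.

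**Figure D2:**
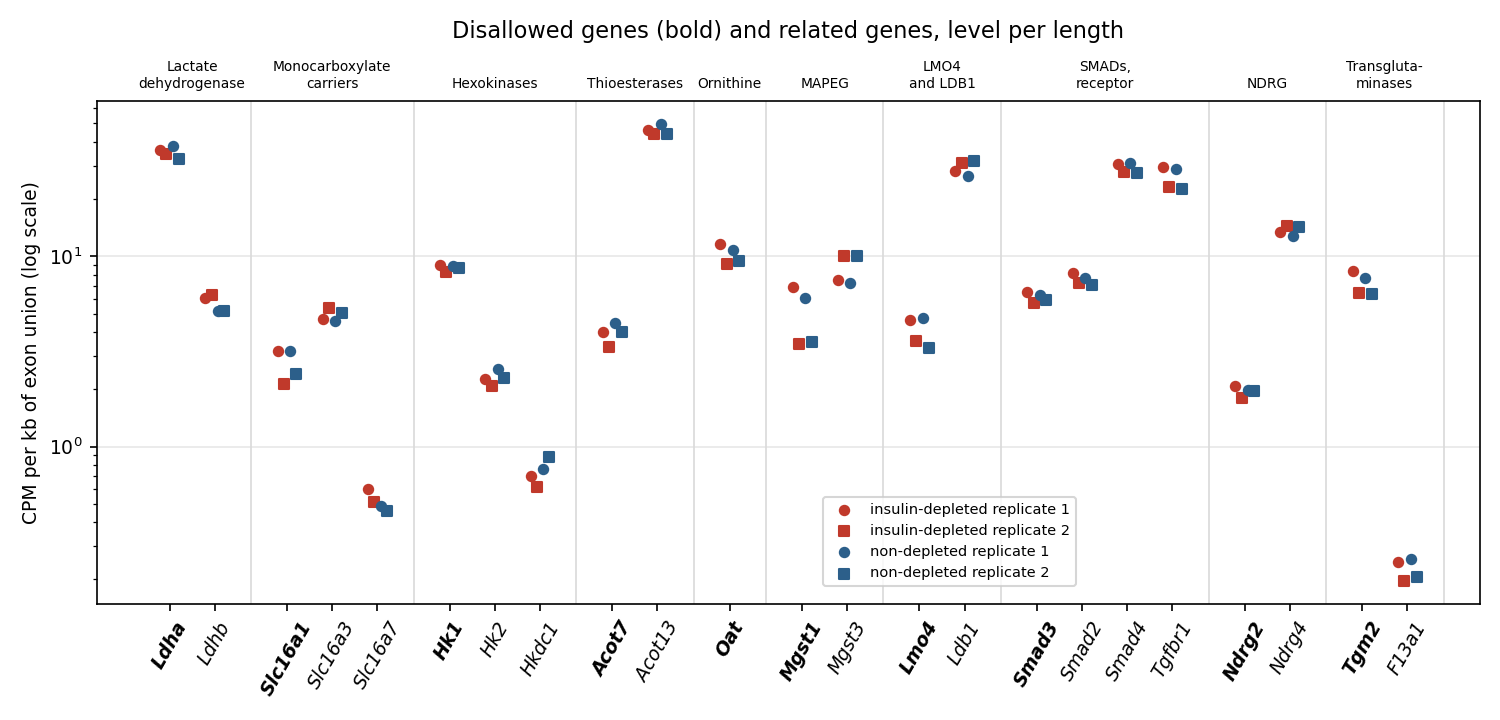
Level per kilobase of annotated exon for each disallowed gene (bold) and relatives named beside it, on a log axis, in the 4 libraries. Bsg is not drawn. Hk1 lies above Hk2 and Ldha lies above Ldhb in every library.

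Depletion panels of this kind are generally built on CRISPR guides that match the insulin sequence, and no source used here lists the guides. The transcripts of the members were therefore searched on both strands for stretches shared with Ins1 or Ins2. No 20-base stretch was shared by 9 members, and Lmo4 shared 1, a plain run of A. Among all genes tested, 7.21% shared such a stretch. The longest runs of Ldha (19 bases) and Slc16a1 (14 bases) were plain runs of T. The longest runs of the other enzymes with a named role in metabolism are shown to give their length and make-up. Hk1 had 15 bases, Mgst1 13, and Acot7 and Oat 12 each.
Hk1: gacttgaggtaggat
Mgst1: ctggtgggcatcc
Acot7: ctgcagcttctg
Oat: cctgcaggtggc

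**Figure D3:**
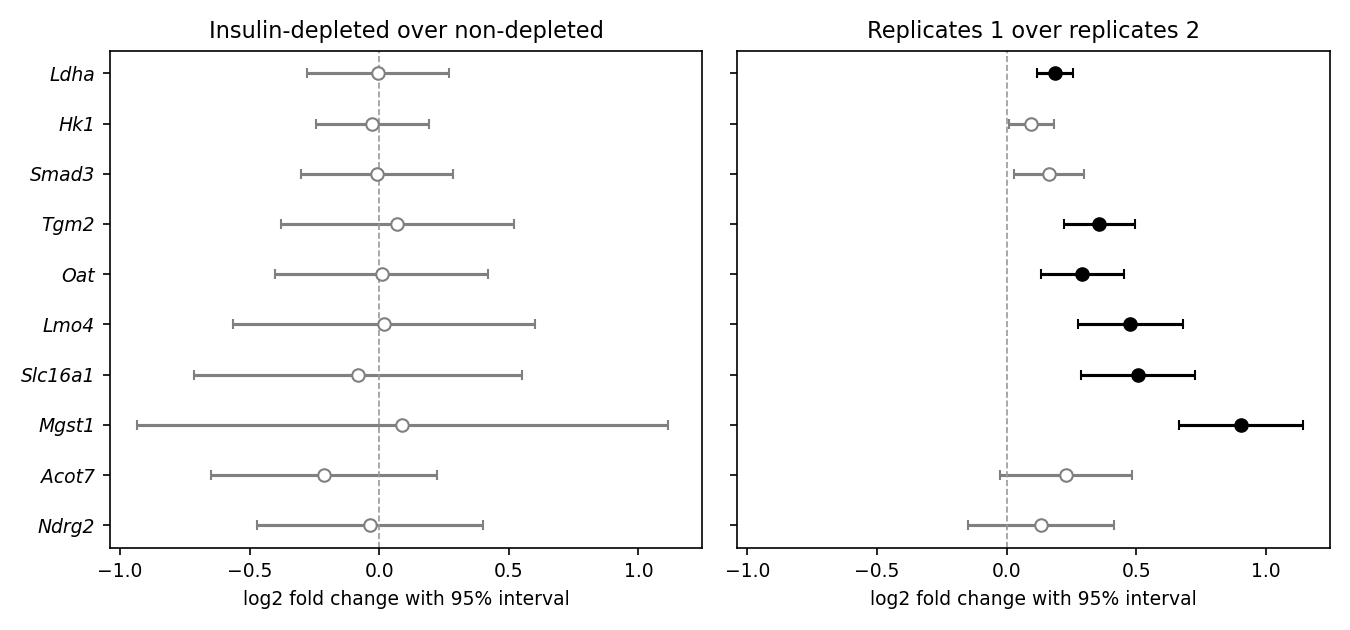
Log2 fold change of each disallowed gene with its 95% interval (edgeR), for insulin-depleted over non-depleted libraries at left and for replicates 1 over replicates 2 at right. Filled points passed an adjusted p of 0.05. All intervals at left include 0, and 6 of the 10 at right were called higher.

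The second question was how far the replicates of a group differed. All 10 members had a higher CPM in replicate 1 than in replicate 2 of both groups. The CPM of both replicates 1 lay above those of both replicates 2 in 10 of 10 members, beside 26.7% of all genes tested. Both replicates 1 lay below both replicates 2 in 34.9% of all genes tested. These shares include genes with far lower counts than the members. The number on the label was tested with the group as a further term, which compares the libraries of each number and not a condition of the study. Same-numbered libraries deviated together from their group means (correlation 0.845 over 11595 genes). Where they share a preparation, p-values of this test measure technical spread and not spread between preparations. In this test 6 of 10 members were higher and 0 lower in replicates 1 (edgeR, adjusted p under 0.05). Of all genes tested 29.6% were called, 14.7% higher and 14.9% lower. That share includes genes with far lower counts than the members, which all had a mean above 5 CPM. Among genes above 5 CPM, cut into 5 groups by GC content, 9.92% to 36.3% of a group were called higher. From 9.18% to 37.1% were called lower, so the share of 29.6% is a low comparison for the members. Over all genes 5831 were called, against 3279 with DESeq2, 3310 without insulin-depleted replicate 2 and 3439 without non-depleted replicate 2, where 5, 5 and 6 members were called. The log2 fold change was above 0 in 10 of 10 members, beside 48.9% of all genes tested, and its median was 0.26 in the members, beside -0.01 over all genes tested. The sum of the 10 members was 359 and 357 CPM in the insulin-depleted and non-depleted replicates 1, and 309.8 and 311 CPM in the replicates 2 in the same order.

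The 6 members called higher in replicates 1 were Mgst1, Slc16a1, Lmo4, Tgm2, Oat and Ldha. Mgst1 differed most, with a log2 fold change of 0.90 (SE 0.12, interval 0.66 to 1.14, edgeR adjusted p = 3.19e-12), a 1.87-fold higher level. The MCT1 gene Slc16a1 was 1.42-fold higher (log2 0.51, SE 0.11, adjusted p = 4.45e-05) and the adaptor gene Lmo4 1.39-fold higher (log2 0.48, SE 0.10, adjusted p = 3.29e-05). Tgm2 had a log2 fold change of 0.36 (SE 0.07, adjusted p = 2.29e-06), and Ldha one of 0.19 (SE 0.04, adjusted p = 1.33e-06), small but with a narrow error. The call of Oat (0.29, SE 0.08, adjusted p = 0.00167) was lost with DESeq2 (adjusted p = 0.0622) and without insulin-depleted replicate 2 (adjusted p = 0.102). Smad3 (0.16, adjusted p = 0.0564), Hk1 (0.10, adjusted p = 0.0956), Acot7 (0.23, adjusted p = 0.190) and Ndrg2 (0.13, adjusted p = 0.562) did not pass.

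The direction was the same in each group. Mgst1 in replicate 1 exceeded replicate 2 by 1.00 on the log2 scale in insulin-depleted and by 0.77 in non-depleted libraries, and Slc16a1 by 0.58 and 0.41. For Tgm2 the differences were 0.38 and 0.29, for Lmo4 0.37 and 0.52, for Oat 0.35 and 0.20 and for Ldha 0.09 and 0.23. The remaining 4 members differed by 0.12 to 0.26 in insulin-depleted and by 0.03 to 0.16 in non-depleted libraries.

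Exocrine markers also differed between replicate numbers. Of 12 acinar-cell markers, which come from the enzyme-secreting tissue around islets, 11 were called higher in replicates 1, with a median log2 fold change of 1.36. Their summed level was 14828 to 14874 CPM in the replicates 1 of both groups and 6100 to 6119 CPM in the replicates 2. The carboxypeptidase genes Cpa1 and Cpb1 and the elastase gene Cela1 had log2 fold changes of 0.93, 1.31 and 1.37, all called (edgeR), and no acinar marker was at 0. Of 9 ductal markers, 6 were called higher and 2 lower, and their sum was 1950 to 1952 CPM in replicates 1 and 1781 to 1797 CPM in replicates 2. Krt19 and Krt18 were higher (0.80 and 0.35) and Krt7 lower (-0.44). The part of these cells in the levels of the disallowed genes was not tested.

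Calls of endocrine, vascular and other markers differed from list to list. Of 11 beta-cell markers, 2 were called higher and 7 lower in replicates 1, with a median of -0.19, and their sum outside Ins1 and Ins2 was 19886 to 20193 CPM in replicates 1 and 19092 to 19233 CPM in replicates 2, led by Iapp. Alpha-cell markers had 3 of 5 called higher and 0 lower (median 0.15), and delta- and gamma-cell markers 1 of 4 in each direction. The alpha-cell sum was 1.14 and 1.13 times as high in replicate 1 as in replicate 2 of the insulin-depleted and non-depleted groups. The delta- and gamma-cell sum was 1.24 and 1.26 times as high. Its genes went both ways: the gamma-cell gene Ppy was called higher (log2 fold change 0.53) and the delta-cell gene Sst lower (-0.30). Hhex (0.10) and Rbp4 (-0.02) did not pass. For the members the ratios of sums were 1.16 and 1.15, and for acinar markers 2.43 in both groups. The part of endocrine cells in the levels of the members was not tested. Endothelial markers had 1 of 10 called higher and 5 lower, stellate and fibroblast markers 3 of 9 higher and 1 lower, and immune markers 1 of 9 higher and 4 lower. Schwann-cell markers had 1 of 6 in each direction and erythroid markers 0 of 5 higher and 2 lower. None of these lists other than the beta-cell list, through Ins1 and Ins2, held a gene called by depletion.

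**Figure D4:**
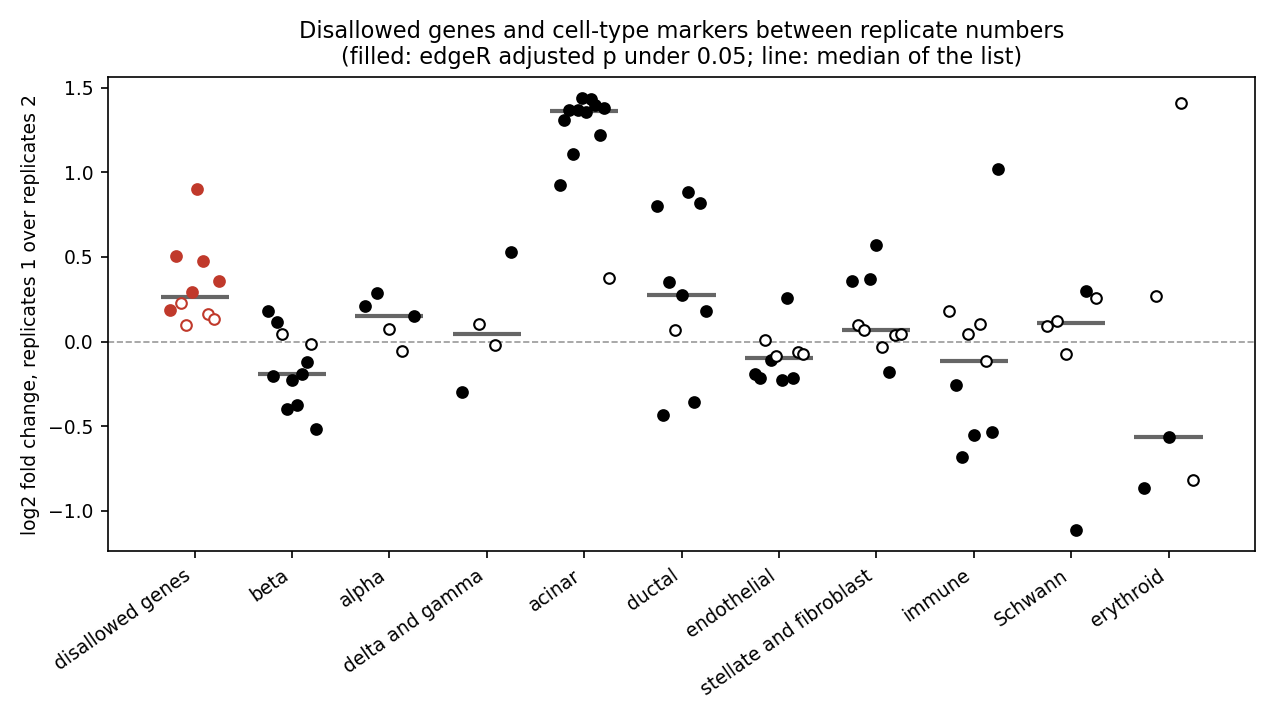
Log2 fold change of replicates 1 over replicates 2, with the group as a further term, for the disallowed genes (red) and for markers of the cells of an islet preparation. Filled points passed an adjusted p of 0.05 and lines give the median of each list, which is 0.26 for the disallowed genes, 1.36 for acinar and -0.19 for beta-cell markers.

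Base composition also moved with the replicate number. Across 11592 genes with a mean above 5 CPM, which are not independent replicates, the GC content of the longest transcript and the log2 fold change of replicates 1 over replicates 2 had a Spearman's rho of -0.30. Cut into 5 equal groups by GC content, the genes of the lowest group had a median log2 fold change of 0.08 and those of the highest group one of -0.12. Only Slc16a1 (42.9% GC) among the members belonged to the lowest group, and Acot7, Hk1 and Tgm2 (56.2, 56.4 and 57.1% GC) belonged to the highest. Every member lay above the median of its own group, by 0.18 (Ndrg2) to 0.87 (Mgst1). The part of base composition in these differences was not tested further.

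Related genes did not all follow the members. Of 10 further genes described as low in beta cells, 3 were called higher and 1 lower in replicates 1. Cxcl12, a chemokine of stromal cells, Pdgfra, a receptor of fibroblasts, and Yap1, a growth regulator of the Hippo pathway, were higher (log2 fold changes 0.53, 0.49 and 0.33), and Igfbp4, a binding protein of insulin-like growth factors, was lower (-0.36). Their sum was 244 to 253 CPM in replicates 1 and 239 to 247 CPM in replicates 2, ranges that overlapped. Mgst3 was lower in replicates 1 (-0.42, adjusted p = 0.00328), as were the MCT1 chaperone gene Bsg (-0.28, adjusted p = 4.98e-39), the LMO4 partner Ldb1 (-0.17, adjusted p = 1.82e-06) and Ndrg4 (-0.12, adjusted p = 0.0431), all from edgeR. Ldhb had a value of -0.0030 and did not pass. In the TGF-beta list 6 of 16 genes were called higher and 5 lower. Smad2 (0.18, SE 0.05), Smad4 (0.18, SE 0.04) and Tgfbr1 (0.37) were called higher. Smad3 did not pass, though its value (0.16, SE 0.07) was of nearly the same size as those of Smad2 and Smad4.

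The remaining families gave counts of few genes. Of 10 thioesterase relatives tested, 1 was called higher in replicates 1 and 0 lower. Ornithine and proline enzymes had 2 of 8 called in each direction, carriers 2 of 6 higher and 1 lower, LIM-only factors and partners 1 of 5 higher and 2 lower, and NDRG relatives 1 of 3 higher and 2 lower. Lactate dehydrogenase relatives had 0 of 2 higher and 1 lower, MAPEG relatives, the family of Mgst1, 0 of 3 higher and 2 lower, and neither hexokinase nor transglutaminase relatives had any.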

How the data were processed

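The deposited data are 1 table of raw gene counts, whole numbers without normalization, for 4 islet libraries. The deposited non-depleted columns, whose headers carry the word size, are listed under expected counts for that word alone; all their values are whole and needed no rounding. Each was assigned by its final number and by the absence of the depletion tag. Cutadapt 4.8, STAR 2.7.11b and the builds GRCm38 and mm10, names of the same assembly, appear in the submitters' processing notes with no role given. How reads were counted, including strand and multiple mapping, is not stated in any source used. Counts of 2 to 9 were even for 80.01 to 84.01% of genes, so counts divided by 2 were an alternative.

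All 55536 identifiers and symbols matched GENCODE M21 (GRCm38). The test was that of edgeR 4.0.16, run in R 4.3.3 (filterByExpr, TMM, glmQLFit robust, glmQLFTest), on group alone, or on group and replicate number for the replicate comparison. Benjamini-Hochberg adjustment ran over 19723 genes, with a threshold of 0.05. Standard errors came from the fold change and test statistic. The steps were tested on simulated counts, drawn with the same dispersion for every gene. Apart from planted changes, these held no deviation shared by same-numbered libraries, unlike the data. Replicates differed beyond counting noise, with a chi-square per degree of freedom of 32.7 in insulin-depleted and 51.01 in non-depleted libraries. With 2 libraries a group, an exact permutation test cannot go below p = 0.333 and was not used. DESeq2 1.42.0 and limma-voom (limma 3.58.1) were alternatives. The members and lists were chosen with earlier results of these data known. All members are named, with relatives and the first 3 genes of marker lists by a fixed rule; others were named after their values were seen. Of the relatives under that rule, 2 are not reported here and were left out of their lists.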

Additional observations from a re-analysis of the deposited data

How the results depend on the processing

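No member was called for depletion under any of the 11 alternatives run (DESeq2, limma-voom, library totals without insulin, no filter, counts divided by 2, insulin genes left out, a replicate block and 4 fits without 1 library each). Among all genes, 0 rather than 2 were called with Ins1 and Ins2 left out, and 9 with the replicate block. Same-numbered libraries deviated together (correlation 0.845 over 11595 genes), but the labels do not say that they share an animal. The sign of uncalled values turned for Ldha with library totals without insulin (0.00047) and with the replicate block (0.0088), and with limma-voom for Oat (-0.0491), Mgst1 (-0.10) and Lmo4 (-0.0201); the cause was not tested. Without 1 library each, an unbalanced set of replicate numbers moved log2 fold changes for depletion to between -0.12 and 0.13 for Ldha, -0.40 and 0.20 for Slc16a1, -0.10 and 0.0416 for Hk1, -0.18 and 0.19 for Oat, -0.48 and 0.55 for Mgst1, -0.23 and 0.32 for Lmo4, -0.11 and 0.10 for Smad3, -0.15 and 0.0800 for Ndrg2, and -0.14 and 0.26 for Tgm2. Acot7 stayed between -0.35 and -0.07, and the median of the members between -0.16 and 0.14.

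Between replicate numbers, all 10 members kept a value above 0 under every alternative, with 5 called with DESeq2, 7 without a group term (Smad3 added, adjusted p = 0.0473) and 5 to 6 without 1 library each, where the group term was dropped too. Calls over all genes were 3279 with DESeq2 and 3310 to 6000 without 1 library each, against 5831. The lowest were 3310 without insulin-depleted replicate 2 and 3439 without non-depleted replicate 2, beside 6000 and 5692 without the replicates 1 of the same groups; the cause was not tested. With the replicate block, standard errors of the members for depletion ran from 0.0354 (Ldha) to 0.144 (Ndrg2). With the longest transcript as gene length, 3 of 10 members kept their place in the order of levels.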
